A study of Mus musculus with 12 samples.

Results

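The comparison described here sets lungs of wild-type mice that underwent cecal ligation and puncture (CLP) against those of sham-operated wild-type mice, both collected 8 h from surgery. It uses the 6 wild-type arrays, 3 per surgery, of the 12 arrays in the series. The other 6 came from mice labelled PPTA knockout, PPTA standing for the product of Tac1, which encodes the precursor of substance P. By the labels, both groups compared here are Balb/c mice of 8-10 weeks, and no agent is named for either. Total RNA of the lung, 5 ug a sample, was made into biotin-labelled cRNA for an Affymetrix expression array. In CLP the cecum is tied off and pierced so that gut bacteria leak into the abdomen, while sham-operated mice have surgery without that injury. The labels speak of triplicates and do not say whether each came from a separate animal, so p-values here reflect only how far these samples spread, and that spread may be technical. Whole lung was profiled, and in such bulk RNA fewer cells of a type and less RNA per cell cannot be told apart.

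Abdominal sepsis reaches the lung through the blood. Bacterial products and cytokines act on the endothelium, on macrophages and on epithelium, and neutrophils collect in the lung's capillaries. Cells that sense such signals release NF-kappaB, a family of transcription factors held in the cytoplasm by IkappaB proteins, and switch on immediate early genes, cytokines and, alongside, the proteins that end the signal. Endothelial cells keep their identity through Notch receptors and ligands, SoxF factors and the Id proteins that answer BMP signals.

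Of 11287 genes tested, each through its brightest probe set, 645 differed between the surgeries (5.71%). Of these, 510 were higher after CLP (4.52%) and 135 lower (1.20%). A gene counts as called, or as having risen or fallen, where its limma p, adjusted over all 22851 probe sets tested, was under 0.05. Signals are the deposited linear intensities, and a difference is log2(signal + 3.47) after CLP minus the same after sham, given with the standard error (SE) of the fit to 3 arrays against 3. Called genes at least 2-fold higher numbered 164 (1.45%) and those at least 2-fold lower 8 (0.0709%), so large rises outnumbered large falls. The median gene lay at -0.03. The arrays of the surgeries did not overlap at 2700 genes (23.9%). Leaving out an array left 358 to 454 genes called higher, while 48 were called lower without sham array 1, 58 without CLP array 1 and 87 without CLP array 3. The filter kept probe sets above the array median on at least 3 arrays, so a gene dim on all sham arrays was tested only if it was bright after CLP, and had to differ. Of the 510 genes called higher, 36 passed that way, and 2 of the 135 called lower passed through the sham arrays alone. The differences of these genes depend on the pseudocount. With the 6 knockout arrays added to the estimate of spread, 130 genes were called higher and 8 lower.

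Over probe sets, 839 were higher (3.67%) and 449 lower (1.96%), together 1288 (5.64%). Among these, 65.1% were higher, and 84.7% when each array was centred on its own median, a scaling that moved the median of all probe sets by 0.11. The correlation between arrays was 0.984 to 0.986 within sham and 0.987 within CLP. Sham array 2 had the lowest neutrophil marker sum of the 6 arrays and the highest sham signals for most called immediate early, feedback and glucocorticoid target genes. Without it 14, 10 and 13 rises of those lists were called, against 14, 10 and 10 with it. The ratio of 3-prime to 5-prime actin signal, a measure of RNA integrity, was 1.51 ± 0.024 (SD, n = 3) after sham and 1.53 ± 0.089 after CLP (two-sided exact permutation p = 1). The Gapdh ratio was 0.821 ± 0.018 and 0.878 ± 0.030 (exact permutation p = 0.1, the smallest that 3 arrays against 3 allow). The lung's own markers were bright on every array and did not pass the test. Surfactant protein C (Sftpc), made by alveolar type 2 cells, gave signals of 10950, 11410 and 10420 after sham surgery and 10800, 11350 and 11130 after CLP. The type 1 cell receptor Ager gave 9647, 9967 and 10270 after sham surgery and 9457, 10110 and 10300 after CLP, and the club cell protein Scgb1a1 13620, 14600 and 13720 after sham surgery and 14030, 14140 and 14390 after CLP. Both probe sets for Tac1 were too dim to be tested, at 2.80 to 16.1 and 1.27 to 16 over the 6 arrays.

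**Figure D1:**
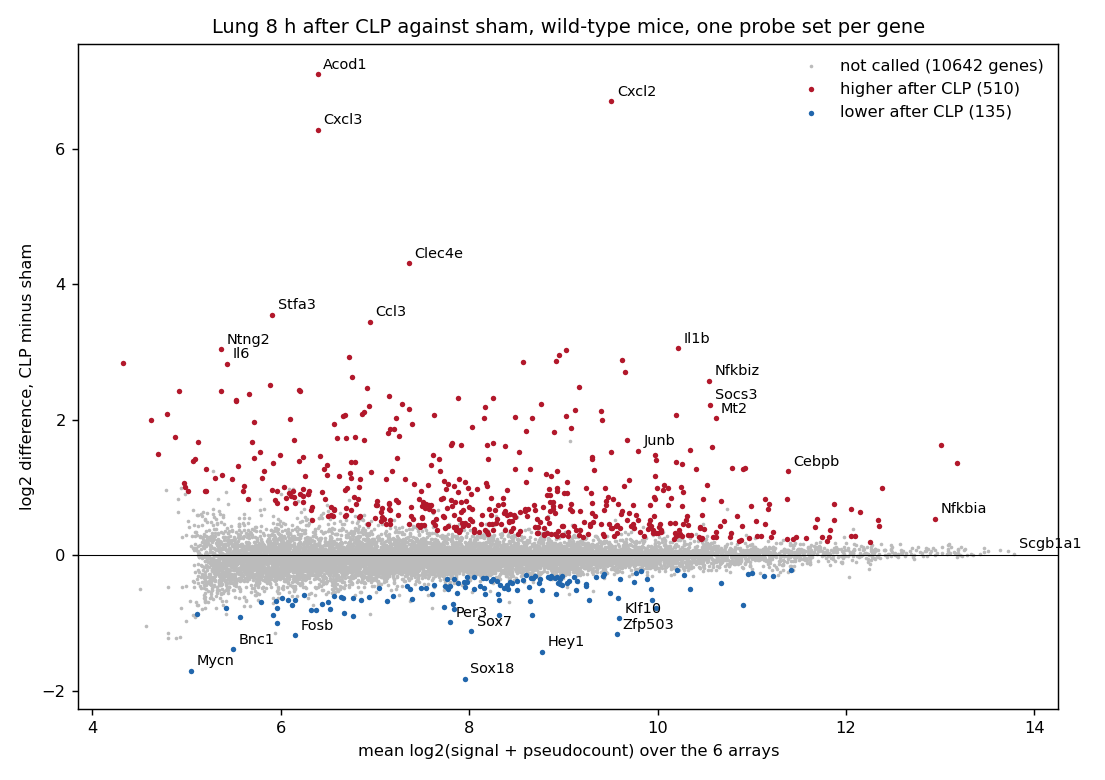
Log2 difference between CLP and sham (vertical axis) against mean log2(signal + pseudocount) over the 6 wild-type arrays (horizontal axis), with 1 point for each of 11287 genes. Red points are the 510 genes called higher, blue points the 135 called lower and grey points the rest; rises reach 7.10 (Acod1), falls reach -1.82 (Sox18), and the bright lung marker Scgb1a1 lies near 0.

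Transcription factors of the vascular wall were among the genes that fell. Of 37 tested genes listed as Notch, SoxF, Id and vascular transcription factors, 9 fell and 5 rose, beside 1.20% and 4.52% of all genes. The list's median difference was -0.02, and that of all genes -0.03. With all 12 arrays in the fit, 3 falls and 1 rise of this list were called. Sox18, a SoxF factor of endothelial cells, gave 564.5, 322 and 547 across the sham arrays and 83.4, 134 and 190 across the CLP arrays. Its lowest sham array stood above its highest CLP array, and Sox18 fell by 1.82 ± 0.27 (SE; limma adjusted p = 0.0020). Its relative Sox7 gave 419, 331 and 397.5 across the sham arrays and 153, 155.5 and 217 across the CLP arrays. The groups did not overlap, and Sox7 fell by 1.12 ± 0.14 (adjusted p = 5.8e-04). Sox17, which completes the family, gave overlapping signals of 814, 598 and 822 after sham surgery and 614, 651 and 637 after CLP, a difference of -0.22 ± 0.11 that did not pass (adjusted p = 0.33).

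The Notch receptors did not pass: Notch1 differed by 0.21, Notch2 by 0.16, Notch3 by 0.13 and Notch4 by -0.24, with SEs of 0.07 to 0.08. Rbpj, the DNA-binding partner of the cleaved receptor, differed by -0.02 ± 0.08, and the ligand Jag1 by -0.00 ± 0.08. Hey1, a repressor induced by Notch in arteries, gave 819, 571 and 781 across the sham arrays and 223, 281 and 295.5 across the CLP arrays. All 3 CLP signals were far under the lowest sham signal, and Hey1 fell by 1.42 ± 0.14 (adjusted p = 1.1e-04). Nrarp, a Notch-induced inhibitor of the pathway, gave 496, 409 and 386 across the sham arrays and 197, 234 and 266 across the CLP arrays and fell by 0.88 ± 0.12 (adjusted p = 0.0015). Hes1, another Notch-induced repressor, fell by 0.57 ± 0.12 (adjusted p = 0.018). The endothelial ligand Dll4 gave 174, 119 and 148 across the sham arrays and 59.6, 73.2 and 102 across the CLP arrays and fell by 0.90 ± 0.19 (adjusted p = 0.020). Heyl, a related repressor, differed by 0.11 ± 0.12 and did not pass. The Dll4 call held in 2 of the 6 fits that left out an array, with an adjusted p of 0.096 without sham array 1, while those of Sox18, Sox7, Hey1 and Nrarp held in all 6. The RBPJ-like letters TGGGAA were searched on both strands of the RefSeq windows described for Per3. They were in 0 of 8 windows of 7 called list members and in 25.6% of all windows. Those 7 were Nrarp, Dll4, Id3 and Gata2, which fell, and Id2, Klf4 and Ets2, which rose. Hey1, Hes1, Sox18 and Sox7 had no window, so their promoters were not searched.

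The Id proteins, which block basic helix-loop-helix factors and are induced by BMP, moved in both directions. Id1 gave 1560, 1479 and 1584 across the sham arrays and 1006, 1005 and 1279 across the CLP arrays and fell by 0.50 ± 0.09 (adjusted p = 0.0070). Id3 fell by 0.77 ± 0.15 (adjusted p = 0.013) from 1397, 991 and 1648 to 682.5, 774 and 860.5. Id2 instead rose by 0.58 ± 0.09 (adjusted p = 0.0034), from 1532, 1343 and 1644 to 2550, 2014 and 2213, and Id4 differed by 0.04 ± 0.08. Gata2, a factor of endothelial and blood progenitor cells, fell by 0.64 ± 0.10 (adjusted p = 0.0038). On the rising side were Ets2 (0.68 ± 0.06, adjusted p = 4.2e-05), the endothelial Ets factor Fli1 (0.49 ± 0.11, adjusted p = 0.030), the flow-responsive Klf4 (0.37 ± 0.06, adjusted p = 0.0039) and Foxf1, a factor of lung capillaries, at 0.53 ± 0.10 (adjusted p = 0.0092). Adjusted p-values in this and later sentences are limma's.

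The summed signal of 29 endothelial identity genes was 51897 to 54059 on the sham arrays and 52174 to 55817 on the CLP arrays, ranges that overlap. Among those genes 2 rose and 2 fell, all by less than Sox18 and Sox7: the tight junction protein Cldn5 (0.21 ± 0.05) and the apelin receptor Aplnr (0.27 ± 0.07) rose, and Egfl7 (-0.27 ± 0.07) and Clec14a (-0.30 ± 0.07) fell. Neither fall passed with arrays centred on their medians, and without single arrays these 4 calls were lost in 5 or 6 of 6 fits. The 3 other Egfl7 probe sets were called lower too, at -0.69, -0.61 and -0.30. Second probe sets of Clec14a (-0.15) and Aplnr (0.22) were not called. VE-cadherin (Cdh5) gave 1567, 1644 and 1761 after sham surgery and 1806, 1993 and 1817 after CLP, without overlap, and did not pass (adjusted p = 0.16). Of 31 genes of the angiopoietin-Tie, VEGF and apelin system, 2 rose and 2 fell, beside 4.52% and 1.20% of all genes. Platelet-derived growth factor B (Pdgfb), which recruits pericytes, gave 867, 717 and 750 across the sham arrays and 459, 559 and 457 across the CLP arrays and fell by 0.66 ± 0.10 (adjusted p = 0.0021). The vasoconstrictor endothelin 1 (Edn1) rose by 0.86 ± 0.20 (adjusted p = 0.034), with sham signals of 518, 776 and 355.5, and its call held in 2 of 6 fits leaving out an array, with an adjusted p of 0.11 without sham array 1. The VEGF receptors Kdr (0.04 ± 0.08) and Flt1 (-0.09 ± 0.07) and the angiopoietin receptor Tek (-0.09 ± 0.05) did not pass. Of 13 pericyte markers, 15 smooth muscle contractile genes and 7 lymphatic endothelial markers, none was called.

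**Figure D2:**
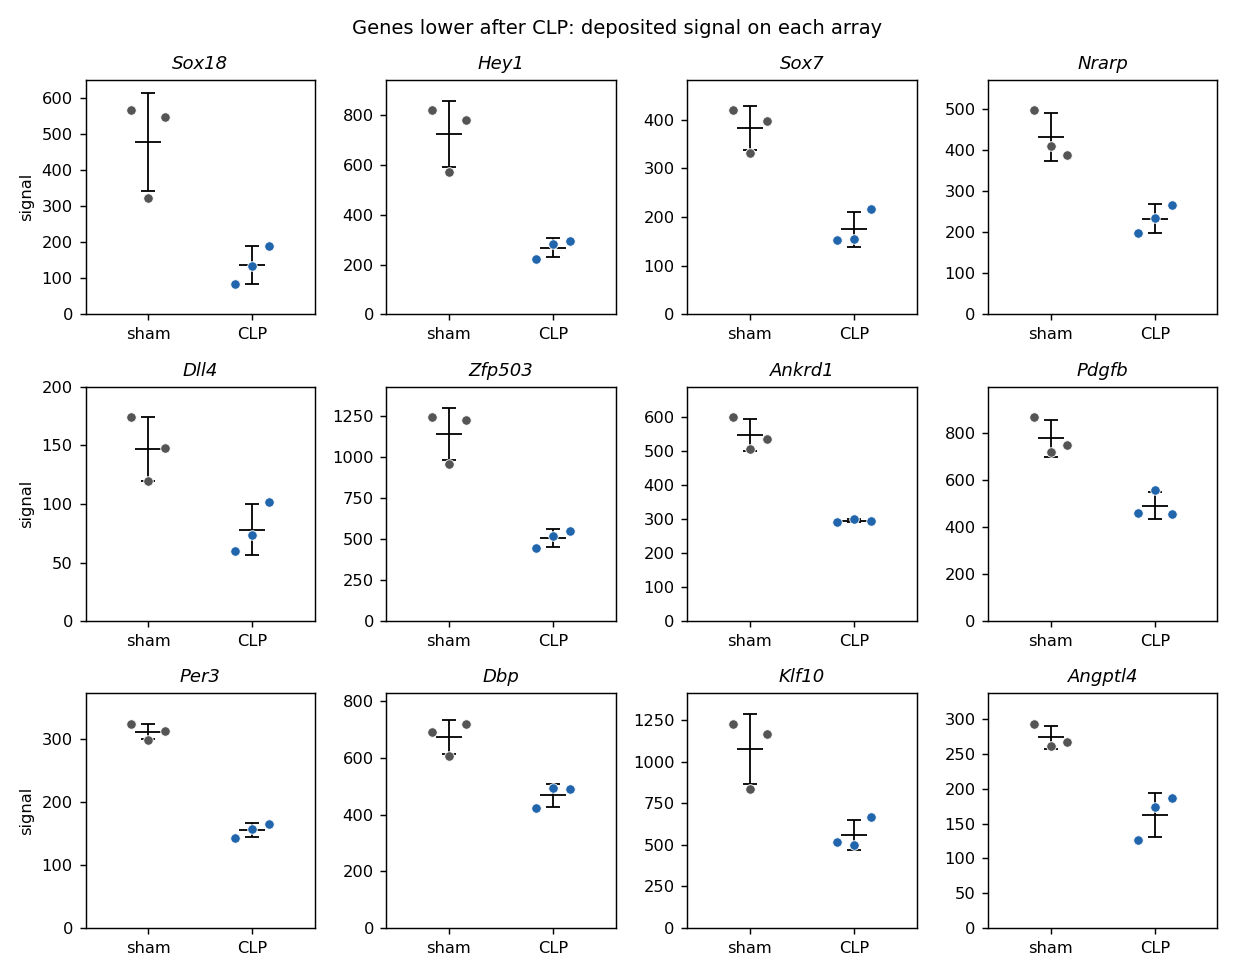
Deposited signal (vertical axes, linear, each from 0) on each of the 3 sham and 3 CLP arrays for 12 genes that were lower after CLP; points are arrays, and the cross and bars give the mean and SD of the group. In each panel every CLP point lies under every sham point, as in Sox18 and Per3.

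Other large falls were in genes outside the lists or shared among them. Zfp503, a zinc finger repressor, gave 1243, 956 and 1223 across the sham arrays and 444, 516 and 551 across the CLP arrays and fell by 1.17 ± 0.11 (adjusted p = 7.7e-05). Ankrd1, an ankyrin repeat protein that responds to mechanical load, gave 600.5, 508 and 536 across the sham arrays and 293, 301 and 294 across the CLP arrays and fell by 0.88 ± 0.08 (adjusted p = 7.3e-05), the 3 CLP arrays being within a few units of each other. Mycn, a Myc family transcription factor, was dim, at 73.8, 42.2 and 56.7 across the sham arrays and 4.53, 24.6 and 23.9 across the CLP arrays. Mycn passed the filter through the sham arrays alone. It fell by 1.71 ± 0.43 (adjusted p = 0.045), and differed by -1.14 with the pseudocount at 50% of the median. The call held in 2 of 6 fits leaving out an array, with an adjusted p of 0.17 without sham array 1. Bnc1, a zinc finger protein of mesothelium, was also dim, at 70.5, 70.4 and 67.9 after sham surgery and 11, 41.6 and 30.1 after CLP, and fell by 1.39 ± 0.34 (adjusted p = 0.040), which likewise held in 2 of 6, with an adjusted p of 0.12 without sham array 1. None of the 8 other mesothelial markers was called. Exosc1 (-1.0 ± 0.26), a subunit of the RNA exosome, and Epm2a (-0.92 ± 0.21), which encodes the glycogen phosphatase laforin, were called and held in 1 of 6 such fits each, with an adjusted p of 0.18 without sham array 1 and an adjusted p of 0.12 without sham array 1. Ighv14-2, an immunoglobulin variable segment, fell by 0.88 ± 0.18 (adjusted p = 0.016), while 0 of 16 B lymphocyte markers passed. Chosen after their values were seen, the matricellular protein Ccn1 fell by 0.73 ± 0.09 (adjusted p = 4.1e-04) from 2451, 2287 and 2665 to 1301, 1547 and 1627, and the endothelial receptor Heg1 by 0.80 ± 0.17 (adjusted p = 0.016).

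Angptl4, a secreted inhibitor of lipoprotein lipase, gave 294, 262 and 268 across the sham arrays and 127, 174 and 187 across the CLP arrays and fell by 0.76 ± 0.14 (adjusted p = 0.0064). It was 1 of 3 genes of 29 for fatty acid uptake and oxidation that fell, with none rising, beside 1.20% and 4.52% of all genes. Acot1, an acyl-CoA thioesterase, fell by 0.48 ± 0.12 (adjusted p = 0.045) and the acyl-CoA dehydrogenase Acadl by 0.23 ± 0.06 (adjusted p = 0.040). The calls of Acot1 and Acadl were lost with arrays centred on their medians, at adjusted p = 0.11 and 0.36. The Acot1 call held in 1 of 6 fits leaving out an array, with an adjusted p of 0.17 without sham array 1. The Acadl call was lost in all 6, with an adjusted p of 0.14 without CLP array 1. Foxa2, a transcription factor of airway and alveolar epithelium, fell by 0.58 ± 0.12 (adjusted p = 0.015). Fgfr3 fell by 0.35 ± 0.06 (adjusted p = 0.0059), the sole call of 25 genes of FGF, EGF and HGF signalling. Smad7, the inhibitory Smad, fell by 0.47 ± 0.10 (adjusted p = 0.017) among 32 genes of BMP and TGF-beta signalling, in which the activin subunit Inhbb rose by 0.95 ± 0.17 (adjusted p = 0.0059) and Smad1 by 0.29 ± 0.06 (adjusted p = 0.025). Lox, which cross-links collagen, was the sole call among 35 fibroblast and matrix genes, at -0.39 ± 0.09 (adjusted p = 0.026, and 0.11 with arrays centred). The Lox call held in 1 of 6 fits leaving out an array, with an adjusted p of 0.097 without sham array 1. A second Lox probe set differed by -0.03. That of Inhbb differed by 0.35 and was not called.

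Clock output genes, Per3 and Nr1d1 fell, and the core activators did not pass. Of 20 circadian genes tested, 5 fell (1.20% of all genes did) and 2 rose (4.52% did). Per3, a period protein, gave 323.5, 298 and 312 across the sham arrays and 142.5, 157 and 165 across the CLP arrays. Each group held together, with a wide gap between them, and Per3 fell by 0.99 ± 0.09 (adjusted p = 7.6e-05); its 3 other probe sets were called the same way. Dbp, Tef and Hlf are the PAR bZIP factors, activators that bind D-boxes and carry the clock to its target genes. Dbp gave 692, 605 and 720 across the sham arrays and 422, 492 and 489 across the CLP arrays and fell by 0.52 ± 0.09 (adjusted p = 0.0054). Tef fell by 0.50 ± 0.13 (adjusted p = 0.045) and Hlf by 0.66 ± 0.15 (adjusted p = 0.025), so all 3 were lower. Nr1d1, the repressor REV-ERB alpha, fell by 0.56 ± 0.14 (adjusted p = 0.039).

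Nfil3, a bZIP repressor that binds the same D-boxes as Dbp, moved the other way. It gave 66.8, 87.9 and 86.2 across the sham arrays and 321.5, 259 and 257 across the CLP arrays and rose by 1.76 ± 0.14 (adjusted p = 1.9e-05), with every CLP signal well above every sham signal. Bhlhe40 rose by 0.32 ± 0.07 (adjusted p = 0.028). The Bhlhe40 call held in 1 of 6 fits leaving out an array, with an adjusted p of 0.12 without sham array 1. It was lost with quantile normalisation (adjusted p = 0.054). The core activators Arntl (-0.01 ± 0.14) and Clock (0.03 ± 0.09) and the repressors Cry1 (-0.20 ± 0.09), Cry2 (0.01 ± 0.08), Per1 (0.34 ± 0.12) and Per2 (-0.31 ± 0.09) did not pass. With arrays centred on their medians 2 of the 5 falls were called, and leaving out an array left 2 to 4. With all 12 arrays in the fit, 1 fall was called. Hlf reached an adjusted p of 0.081 without sham array 3 and Nr1d1 an adjusted p of 0.14 without sham array 1. The collection time of day was not given in the sources used here.

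Per3 is shown because its RefSeq promoter (assembly GRCm38.p6) holds the D-box letters TTATGNAA, searched on both strands. The stretch is the 250 bases before the start site (chr4:151044666-151044915, minus strand), 5′ to 3′ along the gene, with the matches in capitals.
Per3: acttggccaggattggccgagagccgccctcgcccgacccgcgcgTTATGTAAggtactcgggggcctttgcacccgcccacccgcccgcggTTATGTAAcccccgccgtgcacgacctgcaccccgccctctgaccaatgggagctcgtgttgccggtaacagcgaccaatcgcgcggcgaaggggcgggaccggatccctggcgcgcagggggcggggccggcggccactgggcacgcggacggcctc
The matches begin 205 and 158 bases before the start. Of 32851 RefSeq windows of 300 bases (250 before the start site and 50 after it), 3.38% held this motif. Of 7 windows of the called clock genes, 1 did, that of Per3. The E-box CACGTG was in 2 of the 7, both of Tef, and in 7.15% of all windows. A match is a description of letters and not evidence of a bound site.

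Immediate early transcription factors, which cells switch on within minutes of a signal without new protein synthesis, gave 14 rises and 2 falls in 25 tested, beside 4.52% and 1.20% of all genes, and the median difference was 0.74 against -0.03 over all genes. With all 12 arrays in the fit 3 of these rises were called. Junb gave 533, 515 and 502 across the sham arrays and 1509, 1418 and 1612 across the CLP arrays. The sham arrays lay close together, far under every CLP array, and Junb rose by 1.54 ± 0.07 (adjusted p = 5.0e-07). Fos gave 594, 1130 and 650 across the sham arrays and 1971, 2536 and 2195 across the CLP arrays and rose by 1.55 ± 0.19 (adjusted p = 6.2e-04), the second sham array being higher than the others. Cebpb, a bZIP factor of inflammation, rose by 1.24 ± 0.06 (adjusted p = 7.8e-07) and Cebpd by 1.28 ± 0.12 (adjusted p = 1.1e-04). Further rises were in Csrnp1 (1.40 ± 0.17), Fosl2 (1.03 ± 0.10), Maff (1.06 ± 0.16), Btg2 (0.86 ± 0.09), Ier2 (0.84 ± 0.07), Egr1 (0.46 ± 0.11), Egr3 (1.43 ± 0.25) and the orphan nuclear receptors Nr4a1 (0.74 ± 0.13), Nr4a2 (0.75 ± 0.12) and Nr4a3 (1.38 ± 0.19). Egr3 passed the filter through the CLP arrays alone. A second Cebpd probe set differed by 0.36 and was not called. The cAMP response motif was in 2 of 16 windows of 11 called members and in 1.79% of all windows.

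Members of the same families did not all follow. Fosb, a partner of Jun proteins, gave 74.3, 164 and 91.1 across the sham arrays and 42.4, 45.3 and 44 across the CLP arrays and fell by 1.18 ± 0.24 (adjusted p = 0.016), against the rise of Fos and Fosl2. Klf10, a TGF-beta-induced repressor, gave 1228, 838.5 and 1168 across the sham arrays and 518, 502 and 666 across the CLP arrays and fell by 0.93 ± 0.14 (adjusted p = 0.0026). All CLP signals of both genes were under all sham signals. The Fosb call held in 4 of 6 fits leaving out an array, with an adjusted p of 0.054 without CLP array 3. With all 12 arrays in the fit Fosb was not called (adjusted p = 0.68). Jun (-0.18 ± 0.07), Jund (0.11 ± 0.09), Atf3 (0.13 ± 0.09) and Ier3 (0.08 ± 0.12) did not pass, although each was bright enough to be tested. The second sham array gave the highest of the 3 sham signals for 10 of the 14 rises. The sum of the neutrophil markers on that array was the lowest of the 6, as given below.

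**Figure D3:**
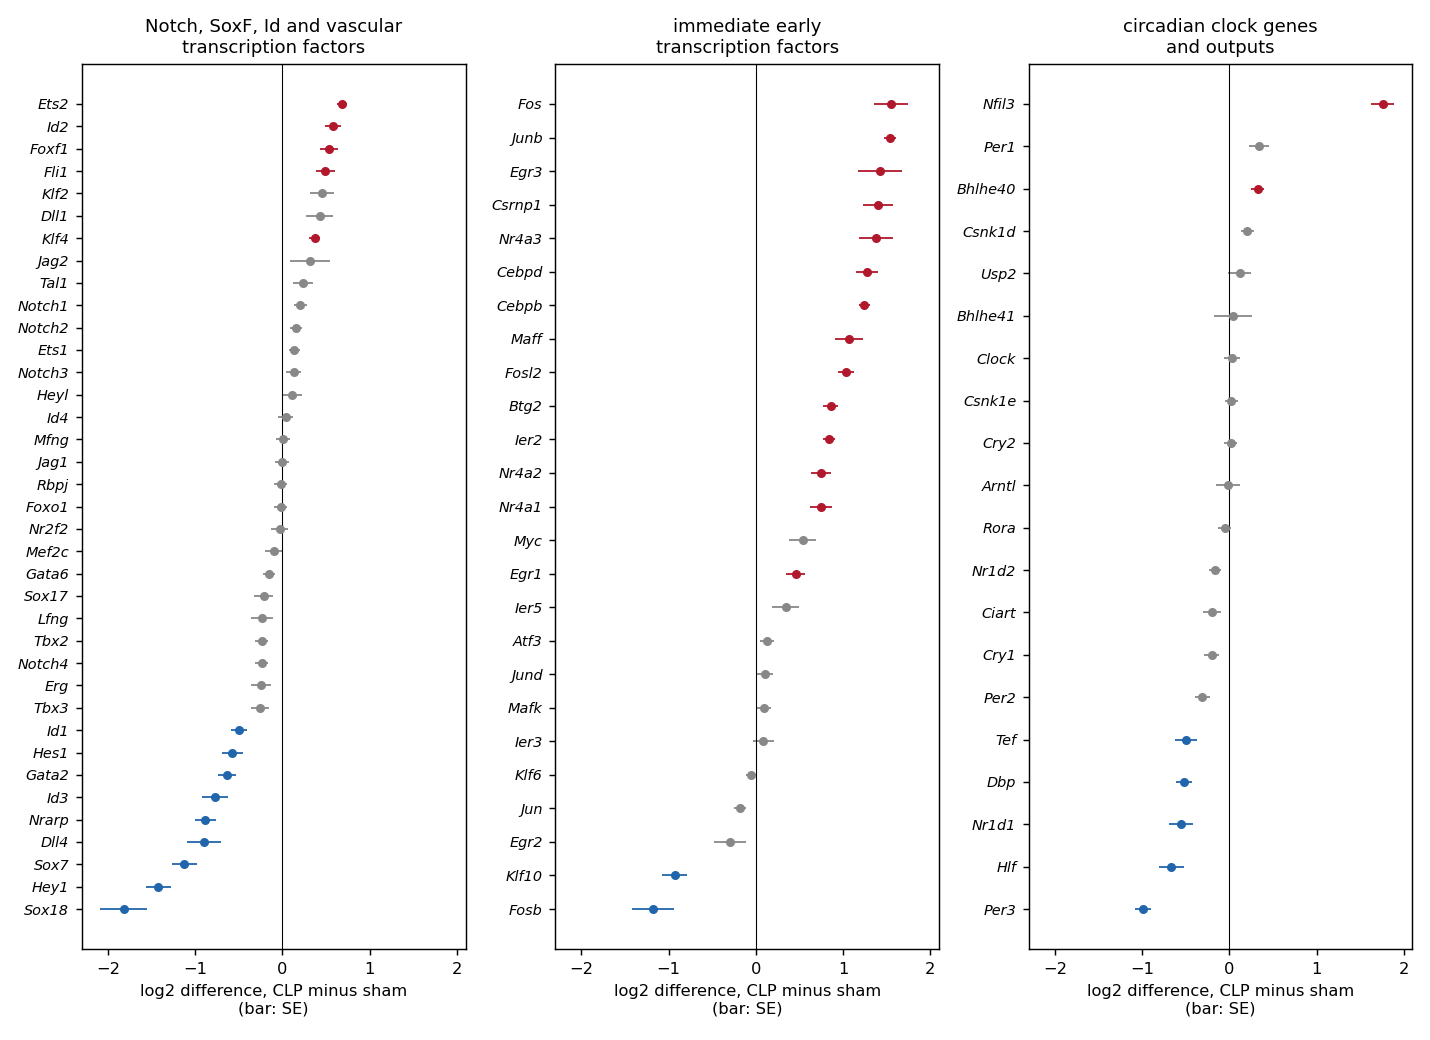
Log2 difference between CLP and sham with its SE (horizontal axes) for every tested gene of 3 lists: 37 vascular transcription factors, 25 immediate early factors and 20 clock genes; red is called higher, blue called lower and grey not called. The vascular list spreads to both sides from Ets2 at 0.68 to Sox18 at -1.82, the immediate early list lies mostly to the right, and in the clock list Nfil3 and Per3 lie at opposite ends.

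Of 15 tested NF-kappaB subunits and inhibitors 9 rose and none fell, beside 4.52% and 1.20% of all genes, and the median was 0.75. Nfkbid passed the filter through the CLP arrays alone, and 7 rises were called when all 6 arrays had to be above their median. Most of those that rose are inhibitors or atypical IkappaB proteins. Nfkbiz, a nuclear IkappaB that selects target genes, gave 569.5, 595 and 665 across the sham arrays and 3873, 3352 and 3752 across the CLP arrays. The groups were far apart with little spread, a rise of 2.58 ± 0.07 (adjusted p = 3.1e-08). Tnfaip3 (A20), a ubiquitin-editing enzyme that ends NF-kappaB signals, gave 290, 374 and 302 across the sham arrays and 1504, 1291 and 1447 across the CLP arrays and rose by 2.13 ± 0.10 (adjusted p = 7.3e-07). Nfkbid (2.42 ± 0.18), Nfkbie (1.43 ± 0.15) and Bcl3 (1.48 ± 0.18) also rose. Nfkbia, the main cytoplasmic inhibitor, was already bright after sham, at 5725, 7745 and 6335 across the sham arrays and 9216, 9748 and 9534 across the CLP arrays, and rose by 0.54 ± 0.09 (adjusted p = 0.0041). Of the DNA-binding subunits, Rel rose by 1.24 ± 0.24 (adjusted p = 0.012), while Rela (0.12 ± 0.06), Relb (0.23 ± 0.14) and Nfkb2 (0.40 ± 0.13) did not pass. The kinase Map3k8, which links these signals to ERK, rose by 1.86 ± 0.21 (adjusted p = 3.5e-04), and the kinase subunits Ikbkb (0.05 ± 0.08) and Ikbkg (-0.14 ± 0.10) did not pass.

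The promoters of 3 of these genes are shown because their upstream bases hold a kappaB-like motif, GGANNTTCC, searched on both strands. Each stretch is the 250 bases before the RefSeq start site (GRCm38.p6), 5′ to 3′ along the gene, with the matches in capitals. They lie at chr12:55492648-55492897, minus strand, for Nfkbia, chr10:19015411-19015660, minus strand, for Tnfaip3, and chr17:45555450-45555699, plus strand, for Nfkbie.
Nfkbia: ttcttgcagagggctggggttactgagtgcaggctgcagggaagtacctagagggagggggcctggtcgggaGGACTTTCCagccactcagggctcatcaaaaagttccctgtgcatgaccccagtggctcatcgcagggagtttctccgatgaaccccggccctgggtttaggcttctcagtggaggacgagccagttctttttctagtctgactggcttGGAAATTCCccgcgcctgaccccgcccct
Tnfaip3: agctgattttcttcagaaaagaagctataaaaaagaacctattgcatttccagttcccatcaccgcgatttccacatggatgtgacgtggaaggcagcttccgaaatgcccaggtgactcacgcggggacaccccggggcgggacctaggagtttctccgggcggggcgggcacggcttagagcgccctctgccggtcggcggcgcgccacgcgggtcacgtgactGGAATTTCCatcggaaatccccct
Nfkbie: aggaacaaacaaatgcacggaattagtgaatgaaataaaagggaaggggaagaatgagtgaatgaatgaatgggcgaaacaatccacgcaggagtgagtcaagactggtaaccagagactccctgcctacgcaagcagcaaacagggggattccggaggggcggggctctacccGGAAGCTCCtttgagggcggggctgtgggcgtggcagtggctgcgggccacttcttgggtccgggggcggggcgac
The matches begin 178 and 29 bases before the start in Nfkbia, 24 in Tnfaip3 and 76 in Nfkbie. In all, 3 of 10 windows of 7 called list members held the motif (30%), and 4.26% of all windows did. All 4 windows of the called CXC chemokines (Cxcl1, Cxcl2, Cxcl3 and Cxcl10) held it. Bcl3, Nfkbid, Rel and Tnip1 had no match in these windows, which says only that the letters are not there.

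Of 29 feedback inhibitors of the Socs, Dusp, Sprouty and mRNA decay families, 10 rose, 19 did not pass and none fell, with a median of 0.16, beside 4.52% of all genes that rose. Socs3, which stops cytokine receptors of the gp130 family, gave 677, 657 and 748 across the sham arrays and 3599, 2670 and 3575 across the CLP arrays and rose by 2.22 ± 0.11 (adjusted p = 7.3e-07). Zc3h12a (regnase 1), an RNase that destroys cytokine mRNAs, gave 77.7, 75.1 and 70.6 across the sham arrays and 491.5, 215 and 392 across the CLP arrays. Its second CLP array was the lowest of the 3 and still above every sham array, and it rose by 2.17 ± 0.23 (adjusted p = 2.2e-04). Zfp36 (tristetraprolin), which marks AU-rich mRNAs for decay, gave 712, 1281 and 742 across the sham arrays and 2514, 2729 and 2730 across the CLP arrays and rose by 1.59 ± 0.17 (adjusted p = 2.4e-04). The ERK antagonist Spry4 rose by 1.90 ± 0.18 (adjusted p = 9.1e-05), and the MAP kinase phosphatases Dusp1 by 0.99 ± 0.14 (adjusted p = 0.0015) and Dusp2 by 2.07 ± 0.36 (adjusted p = 0.0054). Socs2 (0.23 ± 0.06), Dusp6 (0.04 ± 0.10), Dusp4 (-0.12 ± 0.12) and Zfp36l1 (-0.02 ± 0.07) did not pass. The second sham array gave the highest sham signal in 8 of the 10.

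Of 18 interleukin-1 family genes 7 rose and none fell (4.52% of all genes rose). Interleukin 1 beta (Il1b) gave 552.5, 209 and 592 across the sham arrays and 3330, 3199 and 3764 across the CLP arrays and rose by 3.05 ± 0.30 (adjusted p = 1.1e-04), the second sham array being lowest. The decoy receptor Il1r2, which binds it without signalling, gave 181, 120 and 260 across the sham arrays and 1894, 1044 and 1667 across the CLP arrays and rose by 3.04 ± 0.26 (adjusted p = 3.5e-05), and the receptor antagonist Il1rn by 2.20 ± 0.15 (adjusted p = 8.3e-06). The epithelial member Il1f9 rose by 2.06 ± 0.19 (adjusted p = 6.8e-05), the inflammasome sensor Nlrp3 by 1.33 ± 0.16 (adjusted p = 4.5e-04) and Casp4, which senses cytosolic endotoxin, by 0.67 ± 0.12 (adjusted p = 0.0071). Il18 differed by 0.09 ± 0.10 and did not pass. The other Il1rn probe sets differed by 2.90 and 0.78, and 1 of them was called.

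Of 13 genes of the interleukin-6 axis 5 rose (4.52% of all genes did). Il6 was dim after sham, at 12.9, 15.9 and 9.88, and gave 141, 93.1 and 105 after CLP. It passed the filter through the CLP arrays alone, and its difference was 2.83 ± 0.22, or 2.09 with the pseudocount at 50% of the median. Oncostatin M (Osm), a related cytokine of myeloid cells, gave 53.1, 59.5 and 47.6 after sham surgery and 141, 224 and 198 after CLP and rose by 1.73 ± 0.17 (adjusted p = 1.1e-04), its receptor Osmr by 0.32 ± 0.08 (adjusted p = 0.038) and their transcription factor Stat3 by 0.26 ± 0.06 (adjusted p = 0.024). The Stat3 call was lost with quantile normalisation (adjusted p = 0.061), and its other probe sets differed by -0.28, 0.26 and 1.0. Of 15 TNF family and induced genes 4 rose: Tnfaip3, Tnfaip2 (1.83 ± 0.13), the ubiquitin ligase Birc3 (1.34 ± 0.10) and the receptor Tnfrsf1b (1.13 ± 0.14). Tnf itself was below the filter on dim probe sets and was not tested. Among chemokines Cxcl2 rose by 6.70 ± 0.26 (adjusted p = 1.8e-07) and Cxcl3 by 6.28 ± 0.19 (adjusted p = 3.1e-08), in a list of 12 CXC chemokines with 4 rises. Cxcl3 passed the filter through the CLP arrays alone. The epithelial chemokine Cxcl15 was bright and did not pass (0.12 ± 0.04).

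Acod1 is the mitochondrial enzyme that makes itaconate in activated macrophages and neutrophils. It gave 7.32, 1.39 and 3.54 across the sham arrays and 1173, 658 and 1219 across the CLP arrays. Its sham signals were near the pseudocount and it passed the filter through the CLP arrays alone. Its difference was 7.10 ± 0.29, above the 6.70 of Cxcl2, but 5.55 against 6.43 with the pseudocount at 50% of the median. Of the 16 genes of itaconate, arginine and tryptophan metabolism, Arg2 (0.97 ± 0.09) and Gch1 (0.45 ± 0.12), which makes the nitric oxide synthase cofactor, were the other 2 called. A second Gch1 probe set differed by -0.15. Ntng2, a netrin relative of axon guidance, gave 22.1, 6.75 and 7.90 across the sham arrays and 142, 86.5 and 123 across the CLP arrays. It too passed through the CLP arrays alone, with a difference of 3.04 ± 0.33, or 2.20 at the higher pseudocount. Rasd1, a dexamethasone-induced Ras protein, gave 27.8, 83.6 and 27 across the sham arrays and 248, 256 and 299 across the CLP arrays and rose by 2.63 ± 0.33 (adjusted p = 5.7e-04), the second sham array being the highest. Olfm4, a granule protein of some neutrophils, rose by 2.92 ± 0.19 (adjusted p = 5.8e-06), and the transmembrane protein Tmem252 by 2.48 ± 0.22 (adjusted p = 5.3e-05). The uncharacterised transcripts 1700047M11Rik (2.83 ± 0.31) and AA467197 (2.51 ± 0.19) were among the 15 named for large rises, and passed through the CLP arrays alone.

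Of 24 tested receptors and adaptors for microbes 10 rose and none fell (4.52% of all genes rose). Clec4e (Mincle), a lectin receptor for mycobacterial and fungal glycolipids, gave 37, 26 and 38.9 across the sham arrays and 896, 542 and 802 across the CLP arrays and rose by 4.31 ± 0.19 (adjusted p = 5.0e-07), and its partner Clec4d by 2.96 ± 0.23 (adjusted p = 1.8e-05). Cd14, the endotoxin co-receptor, gave 262, 297 and 306 across the sham arrays and 2468, 1560 and 2530 across the CLP arrays and rose by 2.88 ± 0.15 (adjusted p = 1.5e-06). Tlr4, which signals for endotoxin, gave 108, 112 and 97.4 after sham surgery and 116.5, 95.3 and 92 after CLP and did not pass (-0.06 ± 0.13). Tlr2 (2.02 ± 0.18), Tlr13 (1.86 ± 0.19) and Tlr6 (0.95 ± 0.18) rose, as did Trem1 (2.31 ± 0.08) and the peptidoglycan-binding Pglyrp1 (2.07 ± 0.12).

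**Figure D4:**
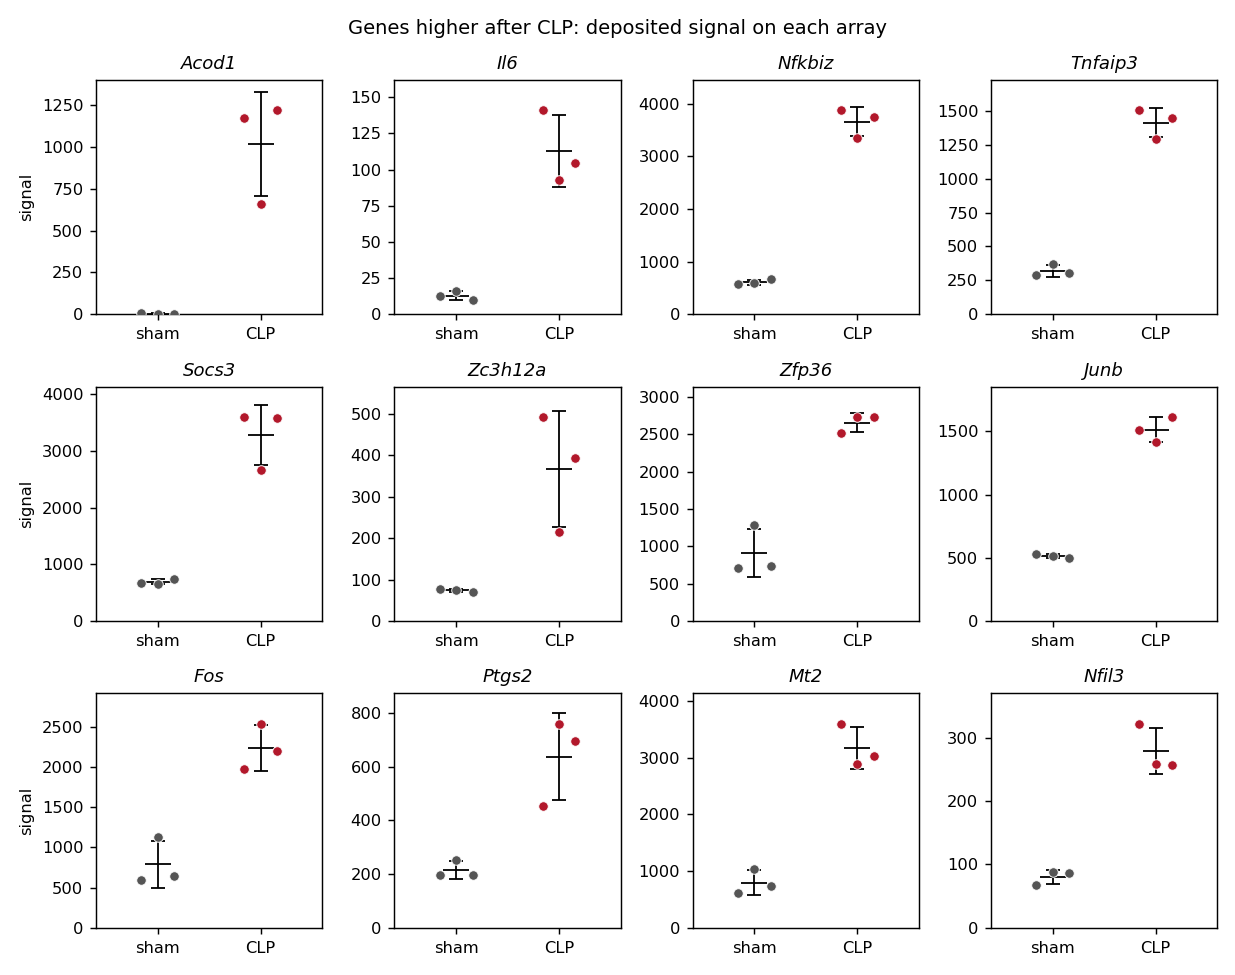
Deposited signal (vertical axes, linear, each from 0) on each of the 3 sham and 3 CLP arrays for 12 genes that were higher after CLP; points are arrays, and the cross and bars give the mean and SD of the group. Every CLP point lies above every sham point in each panel, and in Zfp36, Fos and Mt2 the second sham array is the highest of its group.

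Several of these genes are abundant in neutrophils, whose markers rose together. Rises in the 2 granulocyte lists here stand beside 4.52% of all genes that rose. All 14 tested mature neutrophil markers of 19 listed rose, with Slc7a11 and Stfa3 passing the filter through the CLP arrays alone. The summed signal of the 14 was 9572 to 16090 on the sham arrays and 35923 to 39630 on the CLP arrays. None of the 14 was at 0 on any array, and Cxcr2 (0.68 ± 0.14) rose least and Stfa3 (3.55 ± 0.22) most. The second sham array was the lowest of its group for 9 of the 14. Of 5 granulocyte precursor genes 4 rose, among them Camp (2.14 ± 0.19) and Ngp (2.07 ± 0.15). The part of the neutrophil markers in the rises of Il1b, Il1r2, Clec4e, Acod1 and the other leukocyte genes was not tested.

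Other leukocyte markers moved less. Rises in their lists stand beside 4.52% of all genes that rose. Of 18 monocyte and interstitial macrophage markers 6 rose, including F13a1 (0.96 ± 0.11), Fcgr4 (0.82 ± 0.14), Ccr2 (1.13 ± 0.25) and Plac8 (0.63 ± 0.11). Another of them, Treml4, passed the filter through the CLP arrays alone. The summed signal of the list was 5140 to 5526 after sham and 6626 to 6775 after CLP. Of 16 alveolar macrophage markers none was called, the sums being 14304 to 14957 and 13768 to 14476. The leukocyte antigen Ptprc (CD45) gave 1250, 895.5 and 1093 after sham surgery and 2030, 1797 and 1893 after CLP and rose by 0.83 ± 0.10 (adjusted p = 6.2e-04). Of 13 T lymphocyte markers 3 rose, the checkpoint receptor Ctla4 by 1.97 ± 0.27 (adjusted p = 0.0014), Cd3d by 1.24 ± 0.12 (adjusted p = 7.6e-05) and Il7r by 0.57 ± 0.15 (adjusted p = 0.048). Ctla4 passed the filter through the CLP arrays alone. The Il7r call was lost in each of the 6 fits that left out an array, with an adjusted p of 0.14 without CLP array 1. Of 11 NK and cytotoxic granule genes Gzmb rose by 1.22 ± 0.20 (adjusted p = 0.0038) and Il18rap by 0.79 ± 0.12 (adjusted p = 0.0022).

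Stress hormone and metal response genes rose in part. Of 28 tested glucocorticoid receptor and target genes 10 rose and 1, Angptl4, fell, beside 4.52% and 1.20% of all genes. Metallothionein 2 (Mt2), which binds zinc and copper, gave 609, 1035 and 741 across the sham arrays and 3597, 2887 and 3037 across the CLP arrays and rose by 2.02 ± 0.15 (adjusted p = 1.8e-05). Mt1 gave 1044, 1553 and 1203 across the sham arrays and 3277, 2667 and 3229 across the CLP arrays and rose by 1.28 ± 0.13 (adjusted p = 1.1e-04). A second Mt1 probe set was called too, at 3.22, so whether Mt1 or Mt2 rose more depends on the probe set. Mt1 and Mt2 were the 2 called of 12 metallothionein and zinc transporter genes. Sgk1, a kinase that raises sodium uptake, rose by 0.43 ± 0.06 (adjusted p = 0.0020) and the ErbB inhibitor Errfi1 by 0.53 ± 0.12 (adjusted p = 0.026).

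Several widely used readouts of the glucocorticoid receptor did not pass. Fkbp5 gave 479, 696 and 676.5 after sham surgery and 527, 530 and 623 after CLP (-0.12 ± 0.13), Tsc22d3 differed by 0.26 ± 0.09, Zbtb16 by -0.24 ± 0.08 and Nr3c1, the receptor, by -0.18 ± 0.06. The list's called members include Il1r2, Lcn2, Cebpd, Dusp1 and Cdkn1a, which are also in other lists here. Its median was 0.10. The second sham array was the highest of its group for 9 of the 10 that rose. Ddit4, a stress-induced inhibitor of mTOR, was far higher there than on the other sham arrays: it gave 194, 805 and 162 across the sham arrays and 1355, 877.5 and 745 across the CLP arrays, and its difference of 1.69 ± 0.47 did not pass (adjusted p = 0.065).

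The upstream stretch of Mt2 is shown because the letters TGCNCNC, a loose form of the metal response core, recur in it. It is the 250 bases before the RefSeq start site (GRCm38.p6, chr8:94172368-94172617, plus strand), 5′ to 3′ along the gene, with matches on either strand in capitals.
Mt2: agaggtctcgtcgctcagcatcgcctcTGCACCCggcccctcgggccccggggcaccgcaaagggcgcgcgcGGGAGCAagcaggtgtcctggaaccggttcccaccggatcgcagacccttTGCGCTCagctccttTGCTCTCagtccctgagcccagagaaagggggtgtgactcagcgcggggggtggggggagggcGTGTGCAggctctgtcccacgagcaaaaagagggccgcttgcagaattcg
The stretch holds 5 matches. Both the Mt1 and the Mt2 window held at least 1, but so did 51% of all windows.

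Lipid mediator, glucose and protease genes rose in part. Of 22 prostaglandin and leukotriene genes 6 rose (4.52% of all genes did). Cyclooxygenase 2 (Ptgs2) gave 196, 254 and 198 across the sham arrays and 453, 760 and 697 across the CLP arrays and rose by 1.52 ± 0.17 (adjusted p = 3.0e-04), and the prostaglandin E2 receptor Ptger4 rose by 0.98 ± 0.10 (adjusted p = 1.1e-04). The leukotriene genes Alox5ap (1.11 ± 0.10), Alox5 (0.56 ± 0.13) and Ltb4r1 (0.94 ± 0.23) rose with them. Of 32 glycolysis and hypoxia genes 5 rose (4.52% of all genes did): the glucose carriers Slc2a3 (1.42 ± 0.11) and Slc2a1 (0.73 ± 0.12), the lactate exporter Slc16a3 (1.18 ± 0.19), the myeloid hexokinase Hk3 (0.72 ± 0.12) and pyruvate kinase Pkm (0.35 ± 0.07). Of 24 matrix protease genes the neutrophil collagenase Mmp8 (2.87 ± 0.24), Mmp9 (1.65 ± 0.09), Adam8 (1.63 ± 0.12), Adamts9 (1.28 ± 0.16) and Adamts1 (0.53 ± 0.09) rose. Ltb4r1 and Slc16a3 passed the filter through the CLP arrays alone. The neutrophil marker sums above stand beside these rises as well, and their part was not tested.

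Of 29 apoptosis regulators 8 rose and none fell (4.52% of all genes rose), but 5 rises were called without sham array 1, sham array 3 or CLP array 1, and 4 without CLP array 3. They include both survival and death genes: the survival proteins Mcl1 (0.53 ± 0.09), Birc3 and Birc2 (0.31 ± 0.07), the BH3-only death proteins Bcl2l11 (0.45 ± 0.09) and Pmaip1 (0.36 ± 0.08), and the growth arrest genes Cdkn1a (0.84 ± 0.09), Gadd45a (1.05 ± 0.11) and Gadd45g (0.75 ± 0.15). Of 16 coagulation genes 4 rose, the urokinase receptor Plaur by 1.17 ± 0.08 (adjusted p = 8.4e-06). Of 28 type I interferon-stimulated genes 24 were not called, with a list median of 0.05. Oas3 (2.09 ± 0.43) and Rsad2 (0.70 ± 0.13) rose and Ifit3 (-0.48 ± 0.10) and Eif2ak2 (-0.68 ± 0.17) fell. The falls of Ifit3 and Eif2ak2 were lost with arrays centred on their medians, and Oas3, with dim sham signals of 5.09, 5.86 and 26.6, passed the filter through the CLP arrays alone and had an adjusted p of 0.072 without CLP array 2 in the fits that left out an array. Of 21 interferon gamma genes 4 rose, including the checkpoint ligand Cd274 (1.19 ± 0.18) and Irf1 (0.46 ± 0.07).

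**Figure D5:**
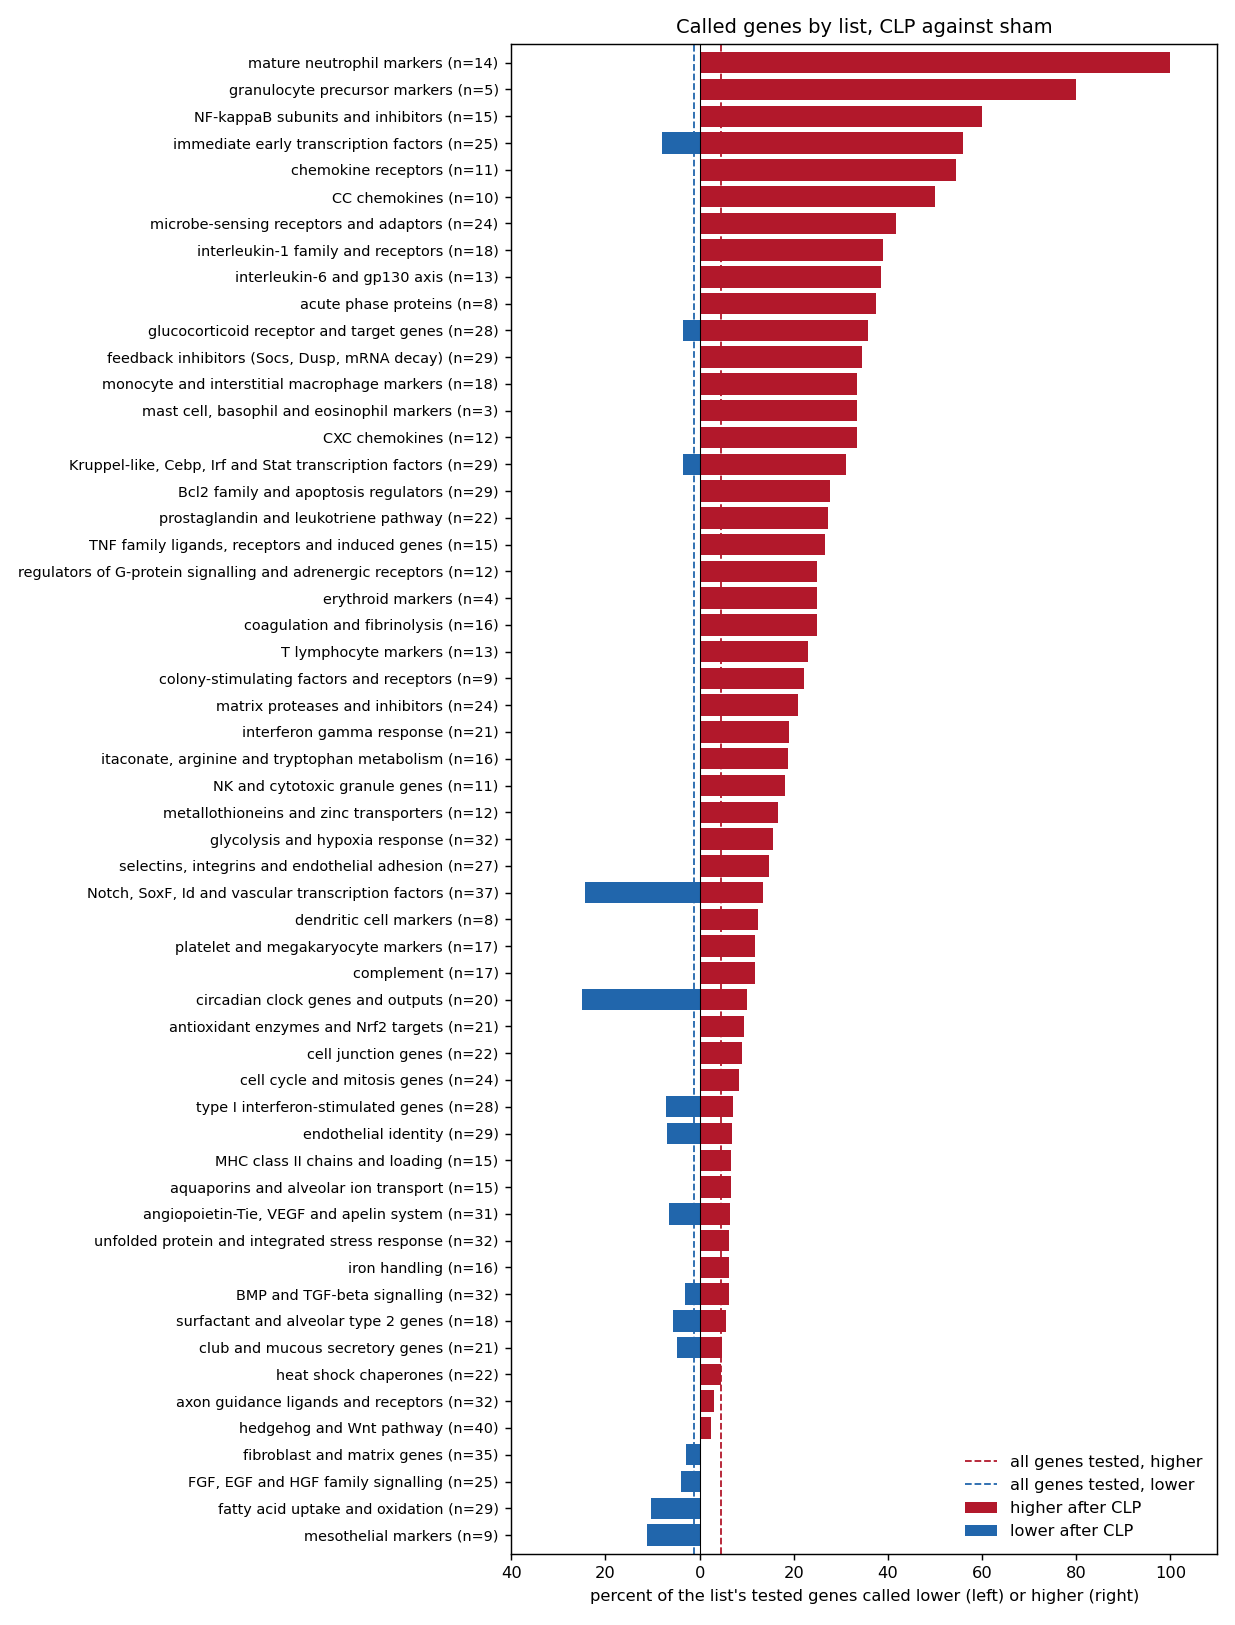
Percent of the tested genes of each list called higher (red, to the right) or lower (blue, to the left) after CLP, for the lists with at least 1 called gene; n is the number of genes tested, and dashed lines mark the share over all genes (4.52% higher, 1.20% lower). The blue bars reach farthest for the clock list (5 of 20) and the vascular transcription factors (9 of 37), and the longest red bars are those of the granulocyte, NF-kappaB and immediate early lists.

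No gene was called among 13 alveolar type 1 markers and 24 motile cilia genes, counts that are near the 5.71% called over all genes in lists of this size. Of 18 surfactant and type 2 cell genes the lipid desaturase Scd1 rose by 0.28 ± 0.07 (adjusted p = 0.031) and the surfactant protease Napsa fell by 0.22 ± 0.05 (adjusted p = 0.031). A second Napsa probe set differed by 0.22, and the Napsa call was lost with arrays centred on their medians (adjusted p = 0.30). Their summed signal was 90206 to 92563 after sham and 92425 to 95188 after CLP. None of 30 respiratory chain, 31 proteasome, 33 ribosome biogenesis, 26 cholesterol synthesis and 26 xenobiotic metabolism genes was called. The largest differences in these were Sdha at -0.12 ± 0.08, Psmc4 at 0.34 ± 0.15, Polr1a at 0.45 ± 0.17, Pmvk at 0.28 ± 0.11 and Cyp2b10 at -0.29 ± 0.09. Of 9 genes of the tachykinin and neuropeptide system and 9 of the angiotensin and kinin system none was called. The adrenomedullin receptor partner Ramp3 came nearest, at 120, 211 and 146 after sham surgery and 222, 253 and 248 after CLP and a difference of 0.63 ± 0.17 (adjusted p = 0.058), followed by Ramp2 at -0.24 ± 0.08.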

How the data were processed

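Lung RNA of 12 arrays was measured, of which the 6 wild-type arrays enter here. Each deposited file lists 1 intensity, a linear signal, for every probe set. The tools named are GCOS, MAS5 and the Affymetrix Expression Console, per the submitters' processing notes, with no role or version. The mean of the deposited intensities between the lowest and highest 2% was 150.0 on every array, so they were scaled to a common level. They had no detection calls, and the number of arrays limits the precision.

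After 64 control probe sets were left out of 45101, log2(signal + 3.47) was used, the pseudocount being 10% of the middle value of the 6 array medians. It understates changes of dim genes. A probe set was tested if it was above its array's median on at least 3 of the 6 arrays. Names came from the platform annotation (34945 probe sets with 1 symbol, 932 with several, 9160 with none), and 34741 of those with 1 symbol matched a RefSeq table (GRCm38.p6). For each gene the probe set of highest mean log2 signal was taken. The fit was limma 3.58.1 in R 4.3.3, with 2 group means and an intensity trend, p-values adjusted by Benjamini-Hochberg over all probe sets tested, and it was tested on simulated data. Per-array measures were compared by exact permutation tests.

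The comparison, the 77 gene lists and the promoter motifs were chosen with earlier results of these data known. Named are the 15 largest called rises and falls without overlap outside chemokine and granulocyte lists, up to 4 called genes per list and direction, up to 2 genes of lists without calls, tissue markers and Tac1. Other genes appear where a list is described member by member, or are said to be chosen after their values were seen. List genes with no probe set in the table used were not analysed here. Alternatives were other scalings, pseudocounts, filters, moderation and array weights, the replicate block, all 12 arrays in the fit, suffix probe sets left out, a 2-fold minimum, averaging a gene's probe sets, and leaving out each array in turn.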

Additional observations from a re-analysis of the deposited data

How the results depend on the processing

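No called named gene changed sign under the alternatives that kept its probe set. Averaging a gene's probe sets was not part of this check. Of 46 named genes that were not called, 9 changed sign in at least 1 of the alternatives checked. With arrays centred Ager became 0.11, Rbp4 0.02, and Rtkn2, Cd8a and Sdhd each 0.01. With quantile normalisation Scgb1a1 became -0.10, Sftpc -0.09 and Cd8a 0.01, and with array weights Ager became 0.00. Leaving out an array gave values from -0.31 to 0.02 for Cd8a, -0.02 to 0.28 for Themis, -0.11 to 0.57 for Cyp1a1, -0.01 to 0.05 for Sftpc and -0.03 to 0.04 for Ager. The 1288 called probe sets became 849 with no filter (224 lower), 840 with no intensity trend (274 lower), 329 at a 2-fold minimum (275 higher, 54 lower, 83.6% higher) and 236 with all 12 arrays in the fit (205 higher, 31 lower, 86.9% higher), which adds the knockout arrays to the estimate of spread. With arrays centred on their median, 1320 were higher and 239 lower (84.7% higher), and of the 1288 main calls 1078 were among them. Leaving out an array gave 745 to 1045 calls, 573 to 768 higher and 154 to 345 lower (65.6% to 79.3% higher). The fewest came without sham array 1 (745, 154 lower), CLP array 1 (778, 205 lower) and CLP array 3 (839, 249 lower), and without sham array 2 there were 277 lower. Of 161 named genes that were called, 115 were called in all 6 of these fits, which use fewer arrays, 46 lost the call in at least 1 and 4 in every one. With all 12 arrays in the fit 101 named genes lost the call.

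With all 12 arrays in the fit the called rises were 3 among interleukin-1 genes, 6 among feedback inhibitors, 3 among immediate early factors, 5 among glucocorticoid targets and 3 among apoptosis regulators. At a 2-fold minimum they were 5, 9, 5 and 2 for feedback inhibitors, immediate early factors, glucocorticoid targets and apoptosis regulators. The apoptosis list gave 3 rises with no intensity trend and 4 to 8 when an array was left out. Clock genes called lower numbered 2 with arrays centred, with no filter, with no intensity trend and with a gene's probe sets averaged, 3 with robust moderation, 1 with all 12 arrays, 0 at a 2-fold minimum and 2 to 4 when an array was left out. Vascular factors called higher numbered 8 with arrays centred, 1 with no intensity trend, 1 with all 12 arrays and 0 at a 2-fold minimum. Those called lower numbered 5 with no intensity trend, 3 with all 12 arrays and 3 at a 2-fold minimum. The cause of these shifts was not tested.

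The replicate block gave 1238 calls (822 higher, 416 lower), of which 1104 were among the main calls. Deviations of same-numbered sham and CLP arrays correlated at -0.00, 0.05 and 0.03. What the numbers stand for was not given in the sources used here. With 3 arrays a group, this check cannot decide whether same-numbered arrays were handled together. Signals near the pseudocount carry no reliable fold.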

Other observations

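Genes of G-protein signalling, adhesion and growth factor receptors gave a few further rises, beside 4.52% of all genes that rose. Of 12 regulators of G-protein signalling and adrenergic receptors 3 rose: Rgs1, which dampens chemokine receptors, at 26.2, 35.9 and 30.4 after sham surgery and 152, 132 and 118 after CLP (2.0 ± 0.17, limma adjusted p = 3.2e-05), Rgs2 at 0.99 ± 0.12 and Rgs18 at 0.57 ± 0.09. Rgs1 passed the filter on dim probe sets through the CLP arrays alone, as did Cd80 below. Of 27 adhesion genes 4 rose, the selectin ligand Selplg (0.99 ± 0.12), the leukocyte integrin chains Itgb2 (0.76 ± 0.07) and Itgam (1.01 ± 0.20), and the hyaluronan receptor Cd44 (0.45 ± 0.07). The Itgam call held in 3 of 6 fits that left out an array, with an adjusted p of 0.069 without CLP array 3. Of 9 colony-stimulating factor genes the receptors Csf3r (1.19 ± 0.19) and Csf2rb (0.54 ± 0.12) rose, the latter called in 2 of 6 such fits, with an adjusted p of 0.10 without CLP array 3.

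Of 15 MHC class II and loading genes the costimulator Cd80 alone was called, at 8.63, 20.3 and 22.3 after sham surgery and 77.8, 45.6 and 57.1 after CLP (1.68 ± 0.31, adjusted p = 0.0092). Hdc, the histamine-forming enzyme and a member of the neutrophil marker list, rose by 1.52 ± 0.09 (adjusted p = 2.7e-06), and the acute phase protein Saa3 by 1.94 ± 0.21 (adjusted p = 2.1e-04), with CLP signals of 466, 223 and 331. Of the atypical chemokine receptors, Ccrl2 rose by 2.70 ± 0.14 (adjusted p = 8.0e-07) and Ackr3 by 1.03 ± 0.10 (adjusted p = 1.3e-04). The median log2 shift from the sham mean over the called rises was 0.81, 0.68 and 0.77 on the 3 CLP arrays, and over the called falls -0.66, -0.54 and -0.61. These genes were selected on the same arrays, so the medians only describe how far the CLP arrays lay apart.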
